A study of Mus musculus with 25 samples.

Results

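The 3333 fragments described here lay in both the N1/RBP and the N1/N1 list of split DamID (SpDamID) and in none of the 4 lists of a complex that holds a co-activator. They were chosen by presence in the deposited lists alone, as identical fragments found in those 2 lists and absent from N1/MAML, N1/p300, Mef2c/MAML and Mef2c/p300. They made up 20.04% of the 16630 fragments common to N1/RBP and N1/N1, and the 6 lists together held 96405 distinct fragments. In SpDamID, complementary inactive parts of the bacterial adenine methylase Dam are fused to a pair of proteins, and GATC sites are methylated where both proteins meet on DNA. The cells were mK4, which are mouse cells from the mesenchyme of the embryonic kidney, kept as a line. Fusions are labelled -D for the first protein and -AM-Ert2 for the second, Ert2 being a hormone-binding domain; the labels used here name no hormone treatment. SpDamID libraries numbered 3 of N1-D/RBP-AM-Ert2, 2 of N1-D/N1-AM-Ert2, 3 of N1-D/MAML-AM-Ert2, 3 of N1-D/p300-AM-Ert2, 1 of Mef2c-D/MAML-AM-Ert2, 1 of Mef2c-D/p300-AM-Ert2 and 3 of the Dam control. FAIRE, which recovers open chromatin, was run on 3 N1wt libraries, with 1 input and 3 control libraries, and myc-tagged N1 by ChIP in 1 library with 1 input. The strain label is CD1, except for 1 N1/N1 library (CD2) and the Mef2c/MAML library (CD3). Libraries were pooled within each list. The N1/RBP, N1/MAML and N1/p300 lists are named as medians, and the N1/N1, Mef2c/MAML and Mef2c/p300 lists are not. No list holds a value per library. Replicate error is therefore unknown, and every difference given here is a description with no test. The 6 SpDamID lists share 1 set of Dam controls.

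Notch1 (N1) is a receptor whose cleaved intracellular part enters the nucleus. There it binds RBP, a DNA-binding protein that recognises short sequence motifs in enhancers and promoters. MAML docks onto the N1 and RBP pair and brings in p300, an acetyltransferase that marks active enhancers. At paired sites 2 such complexes can contact each other through their N1 parts, which is the dimer that N1/N1 is built to read. Mef2c is a MADS-box transcription factor that also works with co-activators. No gene is named for any fragment, since the gene annotation at hand is of another mouse build than the files, mm9, and no genome sequence was used here.

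Fragments in no co-activator list were long. Their median length was 1037 bp, with the middle 50% from 846 to 1254 bp, against a median of 612 bp and a middle 50% from 494 to 780 bp for the 13297 common fragments in at least 1 co-activator list. Over 1000 bp long were 1828 of the fragments in no co-activator list (54.8%) and 1090 of the others (8.2%). Among all distinct fragments 16.8% were over 1000 bp. The members covered 3.54 Mb in all.

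The share of common N1/RBP and N1/N1 fragments found in no co-activator list rose steeply with length. It was 1.16% of 1123 fragments of up to 400 bp, 2.66% of 5380 from 401 to 600 bp and 10.98% of 4416 from 601 to 800 bp. From there it was 30.9% of 2793 up to 1000 bp, 53.1% of 1575 up to 1200 bp, 69.5% of 763 up to 1400 bp and 79.7% of 580 longer ones. The lists themselves differed in the same direction: N1/N1 held 30.97% fragments over 1000 bp and N1/RBP 15.3%, while Mef2c/MAML held 0.435%, Mef2c/p300 5.96% and N1/p300 8.69%. N1/MAML held 23.4%, most of them far longer, with a 95th percentile of 2936 bp.

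The 4 co-activator lists differed in how they changed with length. Of common fragments from 401 to 600 bp, Mef2c/MAML held 90.8%, N1/p300 76.4%, N1/MAML 66.0% and Mef2c/p300 48.3%. Of those from 1001 to 1200 bp, N1/p300 still held 35.6% and Mef2c/p300 22.5%, but N1/MAML held 2.67% and Mef2c/MAML 3.05%. Between 1001 and 1400 bp, N1/MAML held 2.71 to 4.96% of all distinct fragments and N1/N1 held 62.4 to 77.1%. From 1001 to 1200 bp lay 836 members and from 1201 to 1400 bp 530, the classes in which both MAML lists held few fragments of any kind; over 1400 bp, with 462 members, N1/MAML held 44.7% of all distinct fragments. The part of length in the choice of members was not tested.

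**Figure D1:**
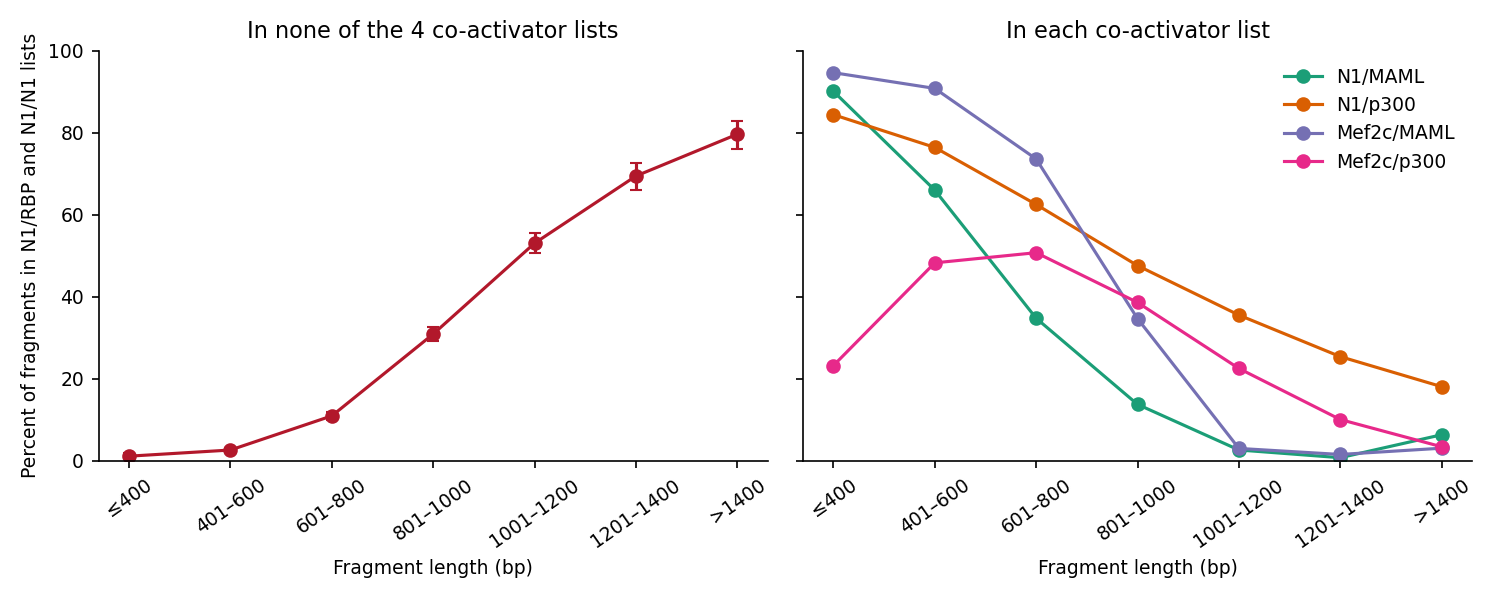
Percent of fragments common to the N1/RBP and N1/N1 lists that lie in none of the 4 co-activator lists (left, with exact 95% intervals) and in each co-activator list (right), by fragment length in bp. The share in no list rises from 1.16% at up to 400 bp to 79.7% over 1400 bp, while both MAML lists fall to about 3% or less from 1001 to 1400 bp.

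The deposited score gives a complex relative to Dam on a scale that is not stated, and each score below ranks fragments within its own list only. Their N1/RBP scores had a median of 297 and ran from 1 to 630, against a median of 440 and a maximum of 833 for common fragments in a co-activator list. Their N1/N1 scores had a median of 287 and ran from 3 to 731, against a median of 385 and a maximum of 851. The 2 scores followed each other weakly across members (Pearson r = 0.26, Spearman rho = 0.26, n = 3333), against r = 0.42 and rho = 0.46 across the 13297 others. These points share the Dam control and the fragment map, so the correlations are descriptions only. Of the 100 common fragments with the highest mean percentile of both scores, 0 were members, and of the highest 1000 there were 11, every one of them over 1000 bp.

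The share of common fragments in no co-activator list went with score as well as with length, and the part of score was not tested either. In the lowest quartile of N1/RBP score, 1486 of 4158 common fragments (35.7%) were in no co-activator list, and in the highest quartile 146 of 4140 (3.53%). Within the class from 601 to 800 bp the share went down from 25.9% in the lowest score quartile to 0.792% in the highest. Within the class over 1400 bp it went down from 90.04% to 40.6%. At the limits of the rule, the lowest N1/RBP score of a member was 1, at chr3:89664937-89666132 (N1/N1 score 312) and chr5:22921535-22922632 (N1/N1 score 160). The lowest N1/N1 score was 3, at chr6:30294338-30295111 and chr6:100621100-100621868, with N1/RBP scores of 191 and 265. Just outside the rule, chr2:176455095-176456057 had a Mef2c/MAML score of 1 and chr7:19667519-19668673 an N1/p300 score of 1. Their N1/RBP scores were 485 and 598.

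**Figure D2:**
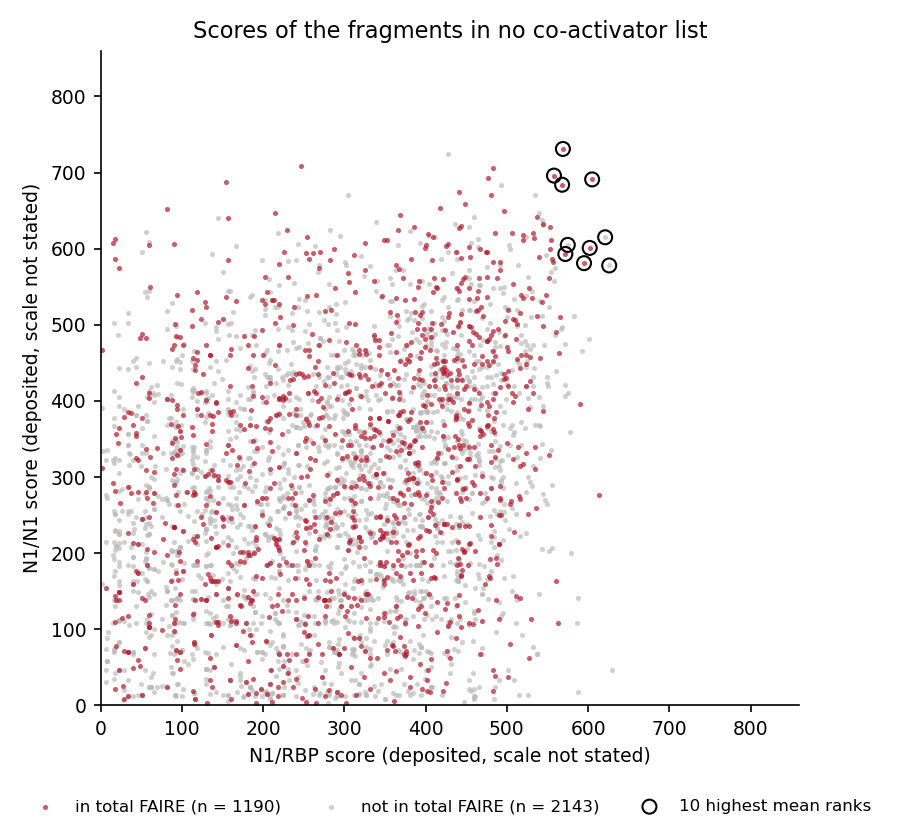
N1/RBP score (x axis) against N1/N1 score (y axis) for the 3333 fragments in no co-activator list, coloured by overlap with total FAIRE, with the 10 highest mean percentiles circled. Points fill the plane up to N1/RBP 630 and N1/N1 731, with r = 0.26.

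Open chromatin was less frequent at these fragments than at common fragments with a co-activator list. Total FAIRE overlapped 1190 members (35.7%, 95% interval 34.1 to 37.4), against 6595 of 13297 common fragments in a co-activator list (49.6%, 48.7 to 50.5) and 19.3% of all distinct fragments. Intervals of shares are exact Clopper-Pearson ones and those of differences Newcombe ones; both cover counting error only, and adjoining fragments are not independent. The difference was -13.9 points (95% interval -15.7 to -12.05). Notch-dependent FAIRE, a deposited list of that name for the N1wt libraries, overlapped 130 members (3.9%, 3.27 to 4.61), against 985 others (7.41%, 6.97 to 7.87) and 2.8% of all distinct fragments. That difference was -3.51 points (-4.27 to -2.67). N1 ChIP overlapped 39 members (1.17%, 0.833 to 1.6), against 434 others (3.26%, 2.97 to 3.58) and 1.41% of all distinct fragments, a difference of -2.09 points (-2.54 to -1.58). In all, 2120 members (63.6%) lay in none of these 3 lists.

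Open chromatin was more frequent at the members than at fragments found in 1 list alone. Total FAIRE held 35.7% of the members, against 15.6% (14.6 to 16.7) of the 5044 fragments found in N1/RBP alone and 18.7% (17.9 to 19.5) of the 9993 found in N1/N1 alone. Notch-dependent FAIRE held 3.9% of the members, against 2.08% (1.71 to 2.51) and 2.54% (2.24 to 2.87) of those classes. Median lengths were 1037 bp for the members, 812 bp for N1/RBP alone and 1182 bp for N1/N1 alone. Median N1/RBP scores were 297 and 191, and median N1/N1 scores 287 and 202, so scores moved with class as well.

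The difference in open chromatin was also present within classes of length. From 401 to 600 bp total FAIRE held 22.4% of 143 members and 49.0% of 5237 others. From 601 to 800 bp it held 30.1% of 485 and 47.1% of 3931, and from 1001 to 1200 bp 36.6% of 836 and 52.9% of 739. Over 1400 bp the shares were 43.1% of 462 members and 46.6% of 118 others, and the interval of the difference (-13.5 to 6.33 points) held 0. Intervals lay below 0 in 5 of the 7 length classes for total FAIRE and in 5 for Notch-dependent FAIRE. For ChIP only 1 of the 7 did, from 1001 to 1200 bp, and the class with the most members in ChIP, 801 to 1000 bp, had 1.85% of 864 members against 1.45% of 1929 others.

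Weighting the others to the make-up of the members, an alternative added after the data were seen, moved the 3 readouts unequally. Weighted to length alone, the others had 49.5% in total FAIRE and 9.16% in Notch-dependent FAIRE, and the differences were -13.8 and -5.26 points. Weighted to length and to N1/RBP score quartile they were -5.85 and -4.34 points. Weighted to length and both scores they were -2.08 points for total FAIRE and -4.3 points for Notch-dependent FAIRE. In the 68 of 97 classes that held at least 20 other fragments, with 2383 members, they were -5.03 and -3.68 points. For ChIP the difference changed sign: it was -0.526 points with length alone, 0.107 with length and N1/RBP score and 0.249 with length and both scores. These weighted values have no interval, and with both scores some classes held as few as 1 other fragment. The part of length and score in these shares was not tested further.

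**Figure D3:**
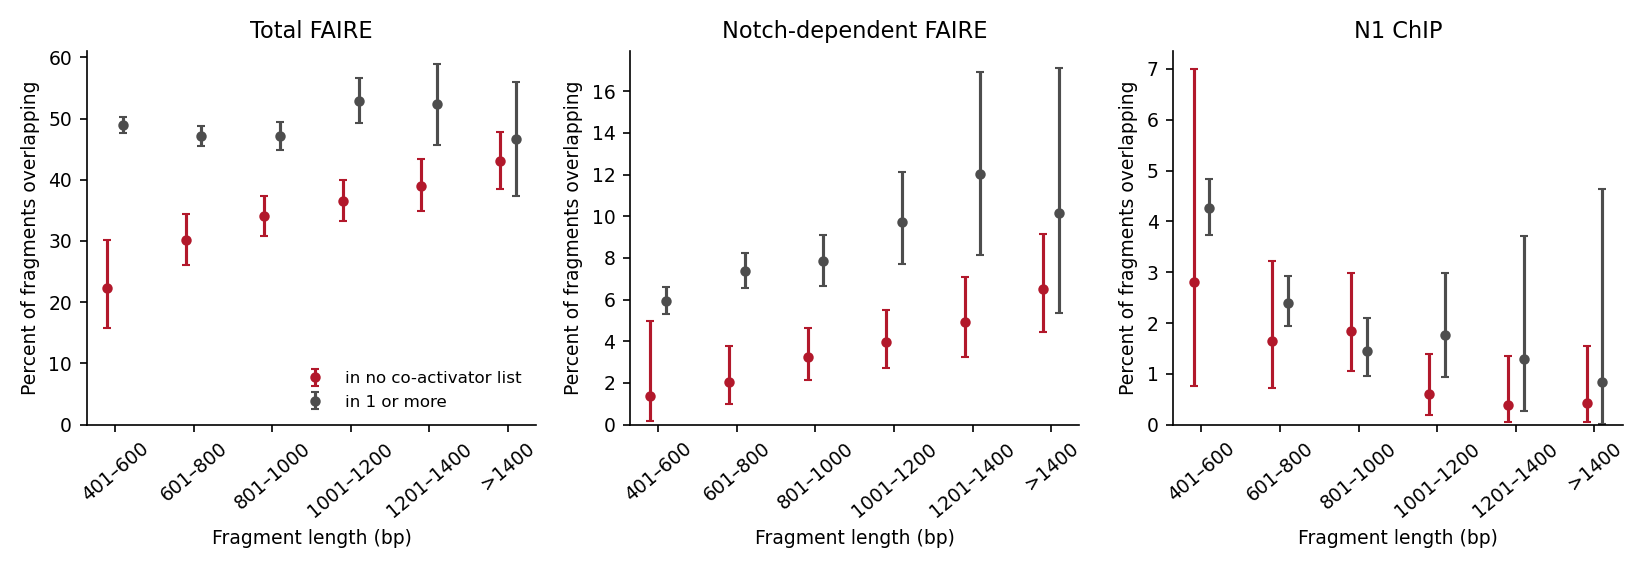
Percent of fragments overlapping total FAIRE, Notch-dependent FAIRE and N1 ChIP (y axes, panels differ in scale) by fragment length in bp, for common N1/RBP and N1/N1 fragments in no co-activator list (red) and in at least 1 (grey), with exact 95% intervals. The class of up to 400 bp, with 13 members, is left out; from 401 to 1400 bp red points lie below grey ones in both FAIRE panels.

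Among common fragments, the share in total FAIRE was higher with each further co-activator list. Total FAIRE held 35.7% with 0 lists, 40.5% of 3119 with 1, 42.3% of 3098 with 2, 52.1% of 4176 with 3 and 63.5% of 2904 with 4. Median lengths were 1037, 808, 658, 540 and 551 bp, and median N1/RBP scores 297, 366, 386.5, 453 and 540. Notch-dependent FAIRE held 3.9, 6.41, 5.94, 8.14 and 8.99% over all lengths, lower with 2 lists than with 1. From 601 to 800 bp, where median lengths were 724 to 667 bp, total FAIRE held 30.1, 36.6, 41.9, 48.1 and 63.6%. In that length class Notch-dependent FAIRE held 2.06% of 485 members, 4.84% of 889 with 1 list, 6.79% of 1061 with 2, 7.95% of 1145 with 3 and 10.05% of 836 with 4. N1/RBP scores rose along the same order there, with medians of 278 for the members and 576 for 4 lists.

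**Figure D4:**
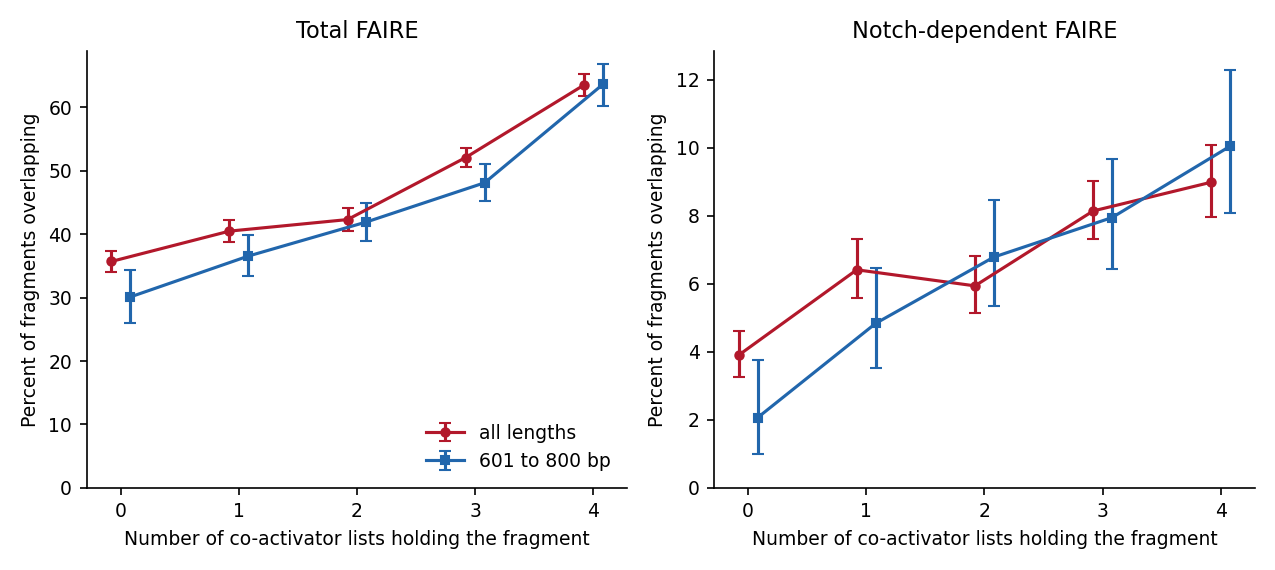
Percent of common N1/RBP and N1/N1 fragments overlapping total FAIRE (left) and Notch-dependent FAIRE (right) by the number of co-activator lists that hold them, for all lengths (red circles) and for 601 to 800 bp (blue squares), with exact 95% intervals. Fragments in 0 lists, the members, are lowest in both panels and both length ranges.

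Common fragments held by exactly 1 co-activator list are nearest to the members, and the lists differed among themselves. Of these, 1519 were in N1/p300 only, and they had a median length of 911 bp and a median N1/RBP score of 408. Notch-dependent FAIRE held 3.9% of the members and 9.41% (7.99 to 10.995) of the fragments with N1/p300 only, a difference of -5.51 points (95% interval -7.2 to -3.97). Total FAIRE held 35.7% and 47.1%, a difference of -11.4 points (-14.4 to -8.44). The 988 fragments with Mef2c/MAML only were shorter, at a median of 631 bp. Over all lengths members exceeded their 2.43% in Notch-dependent FAIRE by 1.47 points (0.163 to 2.54), and the interval for total FAIRE held 0 (-1.41 to 5.31 points). Within classes of length from 401 bp up the sign differed and each interval held 0. From 601 to 800 bp Notch-dependent FAIRE held 2.06% of 485 members and 3.08% of 422 fragments with Mef2c/MAML only (-3.34 to 1.097 points). From 401 to 600 bp it held 2 of 143 and 4 of 388, a difference of 0.368 points (-1.52 to 3.98). From 801 to 1000 bp it held 28 of 864 and 5 of 138, a difference of -0.382 points (-5.07 to 2.11). Longer classes held few fragments with Mef2c/MAML only. The difference was -16.1 points with 5 of them from 1001 to 1200 bp and 5.65 points with 2 over 1200 bp. The part of length in the excess over all lengths was not tested. The 532 fragments with Mef2c/p300 only had a median length of 924 bp and a median N1/RBP score of 302, close to the members. They had 33.6% in total FAIRE and 5.26% in Notch-dependent FAIRE, and over all lengths both intervals of the difference held 0 (-2.37 to 6.27 and -3.68 to 0.386 points). By length, members were lower than these in Notch-dependent FAIRE by -0.851 points from 601 to 800 bp, -1.45 up to 1000 bp, -1.71 up to 1200 bp and -8.64 over 1200 bp. The interval lay below 0 in the last of these (-23.8 to -0.454), which held 35 fragments with Mef2c/p300 only. Only 80 fragments had N1/MAML alone, and their intervals against the members held 0 for all 3 readouts.

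Fragments with N1/p300 only were above the members in Notch-dependent FAIRE in each length class from 401 bp up. From 401 to 600 bp it held 2 of 143 members and 10 of 153 fragments with N1/p300 only, a difference of -5.14 points (-10.3 to -0.518). Notch-dependent FAIRE held 10 of 485 members (2.06%) and 26 of 335 fragments with N1/p300 only (7.76%) from 601 to 800 bp. From 801 to 1000 bp it held 28 of 864 (3.24%) and 41 of 450 (9.11%), and from 1001 to 1200 bp 33 of 836 (3.95%) and 38 of 350 (10.86%). Over 1200 bp it held 56 of 992 members (5.65%) and 26 of 221 others (11.8%), with a difference of -6.12 points (-11.2 to -2.17). Split by N1/RBP score instead, members were lower in each quartile, by -5.4, -2.5, -6.11 and -7.78 points from the lowest to the highest, with upper bounds of -2.72, -0.0443, -2.68 and -2.56. N1/N1 score was not matched in these classes.

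**Figure D5:**
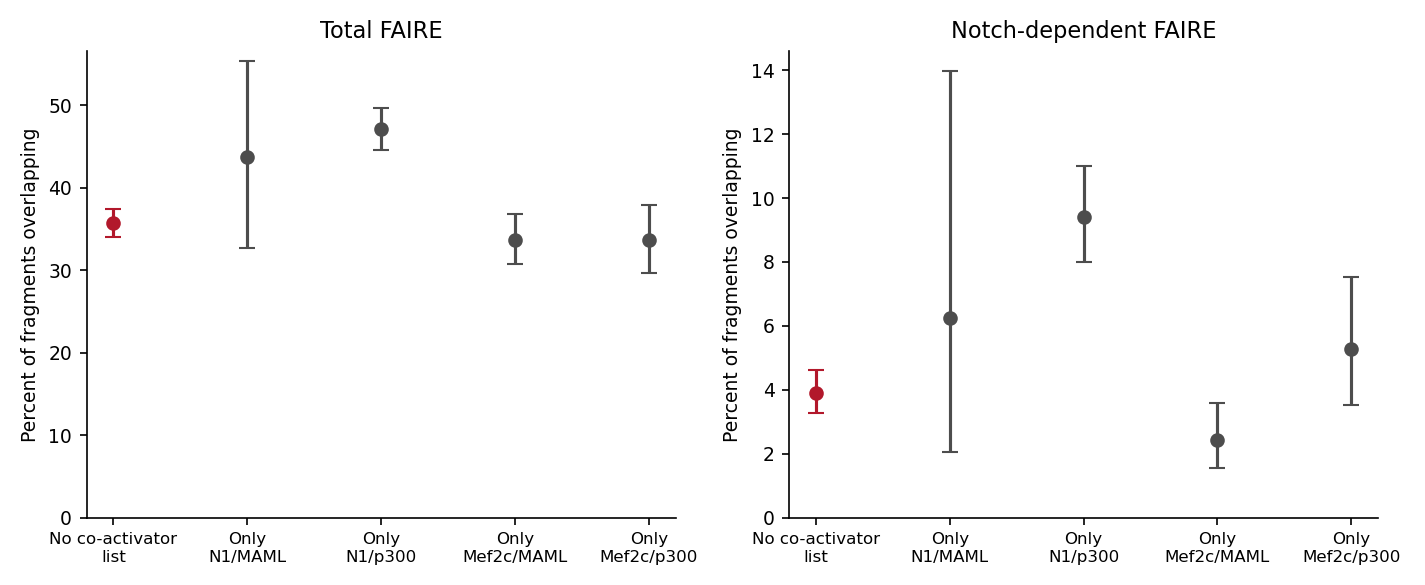
Percent overlapping total FAIRE (left) and Notch-dependent FAIRE (right) for common N1/RBP and N1/N1 fragments in no co-activator list (red) and in exactly 1 (grey), with exact 95% intervals. In Notch-dependent FAIRE the 3.9% of the members lies below the 9.41% of fragments with N1/p300 only and above the 2.43% of the shorter ones with Mef2c/MAML only.

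Members lay closer to a co-activator fragment than listed fragments in general, and farther than the common fragments in a co-activator list. A fragment of a co-activator list adjoined 913 members (27.4%, 25.9 to 28.9), against 40.9% of the common fragments in a co-activator list and 23.7% of all distinct fragments. A further 907 members (27.2%) had one within 1 kb, 654 (19.6%) within 5 kb and 859 (25.8%) none within 5 kb. In all, 54.6% of the members had one within 1 kb or adjoining, against 69.1% of the common fragments in a co-activator list and 46.9% of all distinct fragments. Within 5 kb the shares were 74.2, 83.2 and 66.7%, and the median distances 592, 121 and 1363 bp. Adjoining fragments were in Mef2c/MAML for 728 members, in N1/p300 for 431, in N1/MAML for 347 and in Mef2c/p300 for 272. These neighbours were shorter, with a median of 504 bp over 993 of them. No listed fragment adjoined 2147 members (64.4%). For single lists, and for no listed neighbour, the shares over all distinct fragments are not given. The lists also differ in size, with 50380 fragments in Mef2c/MAML, 22358 in N1/p300, 16545 in N1/MAML and 28757 in Mef2c/p300.

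Open chromatin was more frequent at members near such a fragment. Total FAIRE held 40.2% (37.0 to 43.5) of the adjoining members, 42.0% (38.8 to 45.3) of those with one within 1 kb, 31.7% (28.1 to 35.4) of those within 5 kb and 27.4% (24.4 to 30.5) of those farther away. Notch-dependent FAIRE held 4.93, 4.96, 2.75 and 2.56% in the same order. Median lengths of these groups were 1055, 1071, 1012.5 and 994 bp, and median N1/RBP scores 312, 306, 295 and 276. Of the 1190 members in total FAIRE, 554 (46.6%) shared their open region with a fragment of a co-activator list, and 636 (53.4%) lay in a region with none. For Notch-dependent FAIRE the split was 65 and 65 of 130. No like split of other fragments is given for either list.

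Seen from the open regions, 1201 of 19353 total FAIRE regions (6.21%) and 128 of 2396 Notch-dependent ones (5.34%) held a member. Regions with a common fragment in a co-activator list and no member numbered 5029 (26.0%) and 754 (31.5%). Such common fragments numbered 13297, against 3333 members. Where a total FAIRE region held a member and a co-activator fragment (551 regions), its centre fell in a member in 214 and in a co-activator fragment in 217. Where a Notch-dependent region held both (65 regions), the centre fell in a member in 25 and in a co-activator fragment in 34. Members had a median length of 1037 bp and the co-activator fragments adjoining members one of 504 bp. Length was not matched in these counts, so they do not show which kind of fragment the regions centre on. In the 63 Notch-dependent regions with a member and no co-activator fragment, the member held the centre in 56. The median MACS score of total FAIRE regions was 156.6 for the 650 with a member and no co-activator fragment, 195.8 for the 551 with both and 156.7 for the whole list. For the 5029 with a common fragment in a co-activator list and no member it was 184.3. Median region lengths were 963.5, 1305, 903 and 1066 bp in the same order, and the part of region length was not tested.

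Another member adjoined 104 of the members (3.12%), with no like share of other fragments to set beside it. Of the runs of adjoining members, 3229 held 1 fragment, 49 held 2 and 2 held 3, and the median distance to the nearest other member was 92683 bp. The run chr12:36217044-36219003 joined 3 members, which scored 310, 470 and 228 in N1/RBP and 313, 266 and 434 in N1/N1. It lay 28815 bp from the nearest co-activator fragment and outside FAIRE. The run chr9:64864161-64868150 varied more, at 412, 81 and 250 in N1/RBP and 167, 369 and 58 in N1/N1, and a co-activator fragment lay 24 bp from it. Its first fragment lay in a total FAIRE region of score 207.94. Among pairs, chr1:34176863-34180117 ranked highest. Its fragments, both in total FAIRE, scored 408 and 566 in N1/RBP and 503 and 510 in N1/N1. The next were chr15:79514556-79517135 and chr17:24136246-24137835, with N1/RBP scores of 467 and 444, and of 448 and 441.

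The 10 members with the highest mean percentile of both scores had N1/RBP scores from 558 to 626 and N1/N1 scores from 578 to 731, values that the rule itself rests on. They were 1121 to 1732 bp long, 7 of them lay in total FAIRE, 0 in Notch-dependent FAIRE, and 7 adjoined a co-activator fragment. Over all members these shares were 35.7, 3.9 and 27.4%. The highest, chr12:71926848-71928388 (605 in N1/RBP, 691 in N1/N1), lay in a total FAIRE region of score 358.05. Its 657 bp neighbour had an N1/MAML score of 205 beside N1/RBP and N1/N1 scores of 460 and 326. The fragment chr2:38679873-38680993, with scores of 602 and 601, stood between 2 shorter fragments with N1/p300 scores of 400 and 418 and N1/MAML scores of 351 and 180. The fragment chr2:152653295-152654501, with scores of 595 and 581, adjoined a 681 bp fragment with N1/MAML 428, N1/p300 505 and Mef2c/MAML 435. In each of these 3 cases the co-activator fragment touched the member.

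Of the other 7, 4 adjoined a co-activator fragment and 3 did not, and these 3 were also the ones in no FAIRE region. The fragments chr9:61250208-61251939 (569 and 731), chr2:128253289-128254885 (568 and 684) and chr9:92169190-92170876 (558 and 696) adjoined fragments with N1/p300 scores of 270, 437 and 74. Likewise chr3:78984370-78985864 (572 and 593) adjoined one with an N1/p300 score of 337. A co-activator fragment lay 21 bp from chr7:89570052-89571292 (626 and 578) and 37 bp from chr4:128405732-128407212 (575 and 605). The nearest one to chr8:11252519-11253719, with scores of 621 and 615, was 6173 bp away.

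The 10 members in Notch-dependent FAIRE with the highest mean percentile had N1/RBP scores from 443 to 561 and were 887 to 1709 bp long. All 10 lay in total FAIRE as well, and 5 adjoined a co-activator fragment. The first, chr3:95529846-95531503, stood at 496 in N1/RBP and 650 in N1/N1, with MACS scores of 285.07 in the Notch-dependent and 314.48 in the total list, and its nearest co-activator fragment was 8477 bp away. It is the only one of the 10 with none within 5 kb. Next came chr10:88995851-88996737 (561 and 490) and chr9:102895348-102896351 (537 and 512), with Notch-dependent MACS scores of 93.72 and 138.09. The fragment chr2:112212726-112213804 scored 516 for both and stood between a fragment with an N1/p300 score of 360 and one with 690. The second of these stood at 516 in N1/RBP and 558 in N1/N1 and lay in Notch-dependent FAIRE too.

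Notch-dependent MACS scores of the other 6 covered a wide range. The highest was at chr19:36193478-36195020, with a Notch-dependent MACS score of 328.39 and a total score of 694.03; its N1/RBP score was 476 and its N1/N1 score 536, and its only adjoining listed fragment had a Mef2c/MAML score of 374. The fragment chr13:33093171-33094709 (492 and 583) had a Notch-dependent MACS score of 287.15 and chr1:153017120-153018828 (453 and 602) one of 253.89. Lower values were seen at chr19:12079042-12080413 (512 and 501) with 159.74, chr15:25567374-25568847 (443 and 588) with 144.54 and chr8:125854782-125856082 (523 and 461) with 68.7. The median of the Notch-dependent list was 132.11.

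N1 ChIP regions met members only with identical ends, in 39 of 39 cases. Their ratio of ChIP to input, the authors' own value, had a median of 14.5 and ran from 10.1 to 515, against a median of 15 over the ChIP list. That list is named for a ratio of 10 and for repeat masking, so regions of lower ratio may be missing from both medians. These 39 members had a median length of 913 bp, against 1039 bp for the rest. Of them, 23 lay in total FAIRE and 0 in Notch-dependent FAIRE. Over all members the shares were 35.7% and 3.9%, and with the second so low 39 members are too few to read the 0. The 5 with the highest mean percentile were chr3:87947348-87948668 (N1/RBP 543, N1/N1 530, ratio 13.0), chr3:145422320-145423178 (509, 534, ratio 12.8), chr3:107887753-107888991 (476, 367, ratio 25), chr5:139864189-139865746 (378, 474, ratio 22.6) and chr5:112683404-112684316 (N1/RBP 434, ratio 20.4). Of these, the first and the third lay in total FAIRE, with MACS scores of 377.96 and 209.44.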

How the data were processed

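Values came from 9 lists of regions, each for the whole series, so no library has a value of its own and depth per library is unknown. Each SpDamID list has a deposited score, a whole number for the complex relative to Dam, per the file headers, which name a confidence cut-off. MACS in Galaxy gave the FAIRE regions and their score, per the file headers. The deposited ChIP table holds a signal for ChIP, a signal for input and their ratio. Build mm9 is from the submitters' processing notes; neither the aligner nor the scale of the score is given in these sources. SpDamID lists were matched to complexes by the initials of their proteins. One base was added to FAIRE starts, since those count from 0.

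Fragments were matched by identical ends on the 19 autosomes and X, and FAIRE and ChIP overlap needed 1 bp or more. Python 3.11.15, pandas 2.3.3 and scipy 1.17.1 were used. Overlap and distance functions gave 0 differences from plain loops in 3600 and 194 simulated cases. Shares carry exact Clopper-Pearson 95% intervals and differences Newcombe 95% intervals. Both cover counting error only and treat fragments as independent. With no replicate values no test was run. Members and classes were chosen with earlier results of these data known. Fragments named in the text are those with the highest mean of their 2 score percentiles (10 of all, 10 in Notch-dependent FAIRE, 5 in ChIP), the 5 longest runs and those nearest the limits of the rule. Alternatives covered overlap, scores, length, lists, distance and weighting.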

Additional observations from a re-analysis of the deposited data

How the results depend on the processing

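Of 86 alternative values for 8 results, 44 stayed within the interval of the reported value, or within 1.5 times a count, 39 moved and 3 changed sign; 39 of the 42 differences stayed negative. Joining neighbours, matching by overlap, using autosomes only and leaving out a high-scoring stretch of chromosome 2 with 2 members moved nothing. Some of the 44 could hardly move. The SpDamID lists share a fragment map, so matching by overlap gave the same 3333, and the stretch held 2 of these. ChIP regions met members with identical ends, so 50% overlap and fragment centre left the ChIP share at 1.17%. With absence required from N1/MAML and N1/p300 only there were 5780 fragments, 16.7% of them next to a fragment of those lists, and differences of -18.5 points in total and -4.52 in Notch-dependent FAIRE. With scores from the median up in both lists there were 865, with 43.6% in total FAIRE, 32.6% next to a co-activator fragment and a Notch-dependent difference of -4.3 points. Within the length range common to the 6 lists there were 580, with shares of 28.3% (total FAIRE), 2.07% (Notch-dependent) and 2.07% (ChIP) and differences of -19.9, -4.39 and -1.41 points, the last with an interval that held 0 (-2.38 to 0.146). With no co-activator fragment within 5 kb there were 859, with 27.4%, 2.56% and 0.349%, and differences of -11.7 points in total FAIRE and -3.01 in ChIP. By 50% overlap the FAIRE shares were 23.7% and 2.64% and the total FAIRE difference -16.2 points. By fragment centre they were 20.3%, 2.01% and -18.6 points. With the upper part of FAIRE scores the shares were 20.3% and 1.98%, and the differences -10.9 and -2.56 points. The like shares of all distinct fragments are not given for these alternatives. Their 19.3% and 2.8% are by 1 bp overlap, at a median length of 596 bp against 1037 bp for the members. Weighted to length, the Notch-dependent and ChIP differences were -5.26 and -0.526 points. Weighted to length and N1/RBP score the 3 differences were -5.85, -4.34 and 0.107 points, and to length and both scores -2.08, -4.3 and 0.249 points. In classes with at least 20 others the total FAIRE and ChIP differences were -5.03 and 0.421 points. Within 1 kb in place of adjoining, 54.6% had a co-activator fragment. The cause was not tested. No paired analysis was possible because the lists hold no value per library.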

Other observations

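Members in N1 ChIP were unevenly spread over the genome. Chromosomes 3 and 8, singled out after their values were seen, held 477 of the members (14.3%) but 18 of the 39 in ChIP (46.2%), and 7 of 20 chromosomes held none of the 39. ChIP held 4.15% (95% interval 2.01 to 7.5) of the 241 members on chromosome 3 and 3.39% (1.47 to 6.57) of the 236 on chromosome 8. Of all distinct fragments there it held 1.78% on chromosome 3 and 3.06% on chromosome 8, the second close to the share of the members. The same chromosomes held 24.2% of all distinct fragments in ChIP and 18.8% of all ChIP regions. The share of common fragments in no co-activator list varied less, from 16.01% on chromosome 16 to 23.4% on chromosome 18. Notch-dependent FAIRE held 3.9% of all members. By chromosome it held 11 of 148 on chromosome 19 (7.43%), 15 of 236 on chromosome 8 (6.36%) and 0 of 88 on chromosome 14. These are the extremes of the 20 chromosomes, picked after their values were seen. The like shares of all distinct fragments on these chromosomes are not given, so the values are not read as traits of the members. None of this was tested.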
